A study of Mus musculus with 8 samples.

Results

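Insulin and insulin-like growth factor (IGF) signalling was followed through 9 genes: the receptor genes Insr and Igf1r, the receptor substrate genes Irs1 and Irs2, the PI3K regulatory subunit gene Pik3r1, the kinase genes Akt1 and Akt2, and the transcription factor genes Foxo1 and Foxo3. They were taken by name, and all 9 of the 24469 genes listed were found in both the count table and the table of normalized values. The RNA came from pancreatic islets collected by hand at 8 weeks of age, with 1 mouse behind each library. The wild-type group held 4 C57BL/6 mice. The knockout group held 4 mice on that background without the snoRNAs U32a, U33, U34 and U35a, small guide RNAs of RNA methylation that lie in the introns of Rpl13a, a ribosomal protein gene. The labels name no other allele or agent, and an islet holds several cell types beside the beta cell.

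Insulin and the IGFs bind receptor tyrosine kinases that phosphorylate IRS proteins, to which the regulatory subunit of PI3K docks. The lipid made by PI3K recruits Akt kinases to the membrane, and Akt phosphorylates FoxO factors, which then leave the nucleus and stop activating their targets. In the beta cell this pathway supports growth and survival, Irs2 is the substrate best known for keeping beta-cell mass, and FoxO1 is known to raise Irs2 transcription when insulin signalling is low.

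None of the 9 genes passed an adjusted p of 0.05 between genotypes in edgeR's quasi-likelihood test, a limit that 0.0147% of all 13617 tested genes passed. At an unadjusted p below 0.05 there was 1 of the 9, against 18.7% of all tested genes. Irs2 had the largest estimated difference and was lower in the knockout by 0.64 on the log2 scale, with a 95% interval that ran from -1.45 to 0.17. Akt1 was the member of smallest p, with a log2 fold change of -0.35. Akt2 and Foxo1 had the narrowest intervals, from 0.834 to 1.08 and from 0.813 to 1.06 as folds of the wild-type level. Wild-type replicate 1 was the lowest or highest library of its group for 8 of the 9 members and for 63.8% of all tested genes.

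The libraries held 2.12e+07 to 4.11e+07 assigned counts, and the lowest count of any member in any library was 251, for Irs1. Counts of the targeted snoRNAs summed to 15 in wild type and 0 in knockout, and a count of 0 allows up to 3 in a library. Their host gene Rpl13a, outside the deleted sequences, averaged 105 ± 26.0 CPM in wild type against 97.8 ± 8.16 CPM in knockout (SD, n = 4 each). CPM is the count scaled to a library size of 1000000 after TMM, a correction for differences in RNA composition. All 10 beta-cell markers were detected in every library and took 10.03 to 24.0% of counts in wild type and 8.65 to 16.3% in knockout. The 16 acinar markers, of the enzyme-secreting cells around the islet, were also all detected in every library, none at 0. Their share was 22.3, 1.75, 12.1 and 4.32% for wild-type replicates 1 to 4, and 18.7, 4.51, 24.0 and 15.3% for knockout replicates 1 to 4. The 6 liver genes took 0.584% of counts in knockout replicate 2 and at most 0.000838% in any other library, where Fgb was at 0 in some. In such bulk samples, fewer cells of a type and less RNA per cell cannot be told apart.

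The 3 promoter windows are shown because they belong to the receptor substrates, whose levels are compared with each other further on, and to Akt1, the member of smallest p. Each is the 250 bases before a RefSeq transcription start in build GRCm38.p6, read 5′ to 3′ on the strand of the gene, and 8 of the 9 members matched that table. Capitals mark letters of 4 motifs searched on both strands: TGTTTAC of FoxO factors, TGACGTCA of CREB and its shorter form TGACG, and the E-box CACGTG.
Irs1, chr1:82291440-82291689, minus strand: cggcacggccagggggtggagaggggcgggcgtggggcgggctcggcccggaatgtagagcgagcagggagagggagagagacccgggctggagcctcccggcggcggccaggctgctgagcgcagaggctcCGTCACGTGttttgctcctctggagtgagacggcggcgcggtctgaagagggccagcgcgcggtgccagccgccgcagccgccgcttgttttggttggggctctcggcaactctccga
Irs2, chr8:11008930-11009179, minus strand: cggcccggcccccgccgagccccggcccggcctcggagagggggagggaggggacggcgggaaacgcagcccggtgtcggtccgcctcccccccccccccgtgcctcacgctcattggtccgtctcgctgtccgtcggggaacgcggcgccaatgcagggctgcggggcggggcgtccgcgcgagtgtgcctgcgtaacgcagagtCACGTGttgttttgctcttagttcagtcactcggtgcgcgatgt
Akt1, chr12:112674885-112675134, minus strand: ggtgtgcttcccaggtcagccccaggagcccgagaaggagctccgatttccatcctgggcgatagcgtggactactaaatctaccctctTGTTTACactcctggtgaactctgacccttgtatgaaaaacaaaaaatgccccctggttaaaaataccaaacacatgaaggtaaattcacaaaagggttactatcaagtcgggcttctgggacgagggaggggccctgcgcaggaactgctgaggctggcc
The Irs1 window held the reverse complement of TGACG 118 bases before the start, and this match overlaps an E-box at 115 bases. The Irs2 window held an E-box at 44 bases and none of the other motifs. The Akt1 window held TGTTTAC at 161 bases, while a second RefSeq start of Akt1 had no match. Among 32851 windows of the same length, 6.02% held the E-box, 17.8% TGACG, 3.17% TGTTTAC and 1.55% TGACGTCA. A match of letters is a description and shows no binding.

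Levels could be compared between genes only per length, as CPM per kilobase of annotated exons. In wild type the kinase gene Akt1 was highest at 9.68 ± 0.77 CPM per kb, followed by Igf1r at 8.29 ± 1.44, Akt2 at 7.94 ± 0.40 and Pik3r1 at 7.20 ± 1.52 (SD, n = 4). The wild-type ranges of neighbours among these 4 genes overlapped. Pik3r1 stood above the next gene, Foxo1, in all 8 libraries. Foxo1 was at 4.98 ± 0.42 CPM per kb, Insr at 4.32 ± 0.49 and Irs2 at 3.77 ± 1.39, again with overlapping ranges. The lowest genes were Foxo3 at 2.29 ± 0.62 and Irs1 at 2.03 ± 0.51 CPM per kb. In knockout the same 4 genes formed the upper group, now led by Pik3r1 at 8.31 ± 0.39 CPM per kb, and Irs2, Foxo3 and Irs1 were again the lowest, at 2.43, 2.38 and 1.80. The lengths come from GENCODE M21 and ignore which isoforms the islets use.

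**Figure D1:**
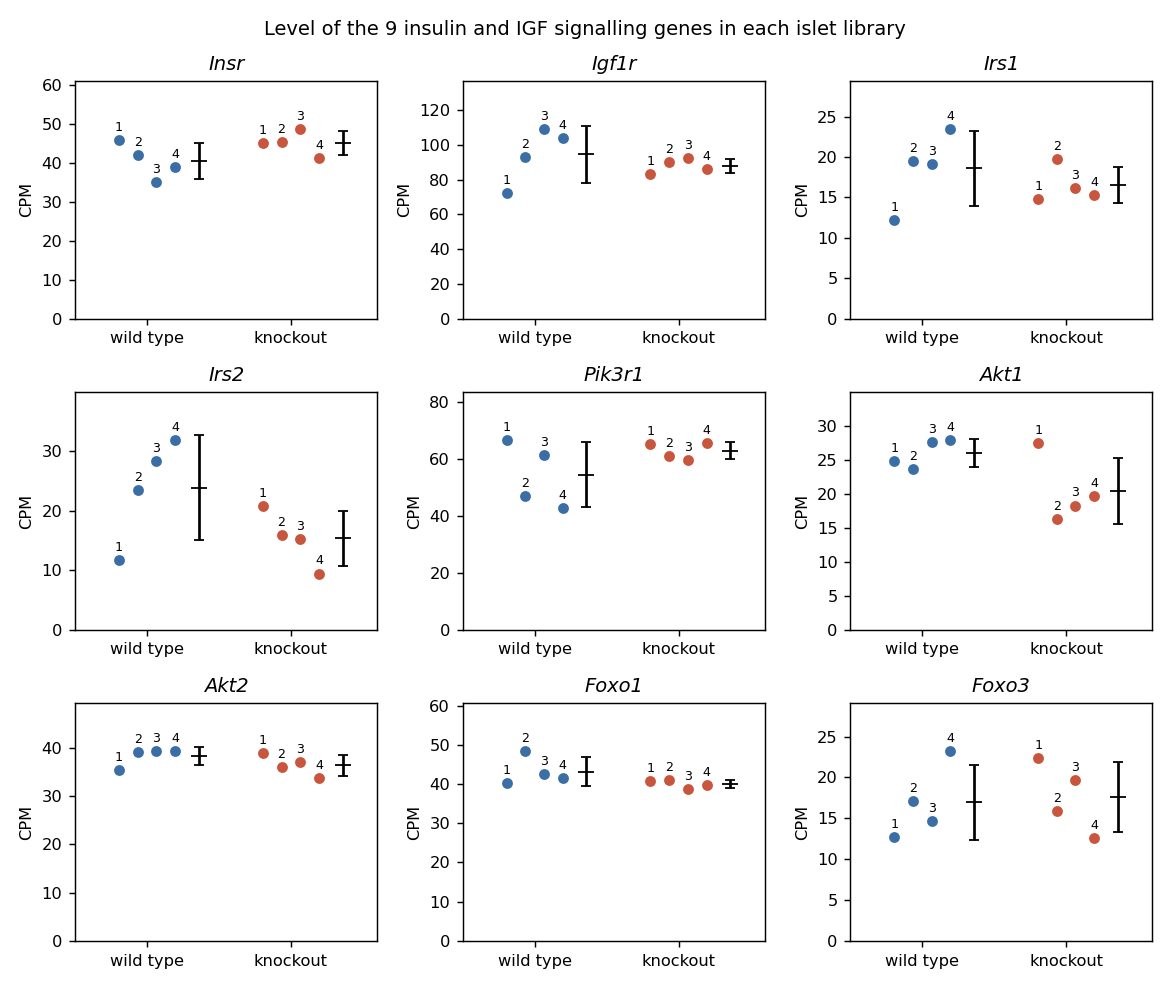
Each panel plots 1 gene, with CPM on a vertical axis that starts at 0, the 4 wild-type libraries as blue points and the 4 knockout libraries as red points, numbered by replicate. Black bars show the mean ± SD. The genotypes overlap in all 9 panels, and wild-type replicate 1 is the lowest wild-type point for 6 genes and the highest for 2.

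Among the receptors, Insr encodes the insulin receptor and Igf1r the receptor of IGF1. Insr was at 45.8, 42.0, 34.97 and 38.9 CPM in wild-type replicates 1 to 4 and at 44.9, 45.3, 48.7 and 41.3 CPM in the knockout replicates. The knockout libraries all lay above the wild-type median, but wild-type replicate 1 exceeded 3 of them. With an SE of 0.10, the log2 fold change was 0.16 (edgeR adjusted p = 0.416), and SEs follow ± for the other log2 fold changes. Igf1r was at 72.2, 92.8, 109 and 104 CPM in wild type and at 83.4, 90.0, 92.1 and 85.9 CPM in knockout. The 4 knockout libraries were close together, between the lowest wild-type library and the other 3. Its log2 fold change was -0.11 ± 0.12 (edgeR adjusted p = 0.663). Igf1r lies on chromosome 7, as do Akt2 and the targeted gene Rpl13a, and linkage of either to the targeted allele was not tested.

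Both substrate genes are known to dock PI3K once a receptor has phosphorylated them. Irs1, the broadly expressed substrate, was at 12.3, 19.5, 19.1 and 23.5 CPM in wild type and at 14.8, 19.7, 16.2 and 15.3 CPM in knockout. The knockout values lay inside the wild-type range (log2 fold change -0.17 ± 0.18, edgeR adjusted p = 0.617). Irs2 was at 11.7, 23.4, 28.3 and 31.9 CPM in wild-type replicates 1 to 4 and at 20.8, 15.8, 15.2 and 9.45 CPM in the knockout replicates. All 4 knockout libraries were below the wild-type median, 3 wild-type libraries were above all of them, and wild-type replicate 1 lay below 3 of them. The group means were 23.8 ± 8.81 and 15.3 ± 4.66 CPM, a log2 fold change of -0.64 ± 0.35 (edgeR adjusted p = 0.344). The coefficient of variation of Irs2 was 37.0% in wild type and 30.4% in knockout, the highest of the 9 genes in each group. Without wild-type replicate 1 the log2 fold change of Irs2 was -0.89. That library was the only wild-type one to overlap the knockout libraries, so leaving it out favours a small p. Over all 19 alternatives the adjusted p of Irs2 ran from 0.0591, in that edgeR fit, to 0.613. The deposited counts of Irs2 were not whole in 6 libraries and those of Pik3r1 in 5, while those of the other 7 members were whole within 0.01 in every library.

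Pik3r1 encodes p85 alpha, which links IRS proteins to the PI3K catalytic subunit. It was at 66.7, 47.0, 61.4 and 42.6 CPM in wild type and at 65.3, 60.9, 59.7 and 65.5 CPM in knockout. Wild-type libraries fell both above and below the tight knockout group, and the log2 fold change was 0.21 ± 0.14 (edgeR adjusted p = 0.415). Akt1, the kinase isoform best known for cell growth and survival, was at 24.9, 23.7, 27.6 and 28.0 CPM in wild type and at 27.5, 16.3, 18.3 and 19.7 CPM in knockout. Knockout replicate 1 lay among the wild-type libraries, and the other 3 lay below all of them. The log2 fold change was -0.35 ± 0.15, with an unadjusted p of 0.0352 and an edgeR adjusted p of 0.240. Dropping knockout replicate 1 moved this value to -0.54, with no p given because that library was the one that overlapped. Dropping replicate 2 of the same group moved it to -0.26. Akt2, the isoform best known for glucose metabolism, was at 35.5, 39.2, 39.4 and 39.3 CPM in wild type and at 38.9, 36.0, 37.1 and 33.7 CPM in knockout. Its coefficient of variation was 4.98% in wild type and 5.95% in knockout. The log2 fold change was -0.074 ± 0.085 (edgeR adjusted p = 0.654), and the 95% interval of the fold ran from 0.834 to 1.08.

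Of the FoxO factors, which Akt holds out of the nucleus, Foxo1 is the best studied in the beta cell. It was at 40.3, 48.5, 42.5 and 41.4 CPM in wild type and at 40.7, 41.1, 38.7 and 39.9 CPM in knockout. Wild-type replicate 2, the library with the smallest acinar share, stood highest, and the knockout libraries had a coefficient of variation of 2.56%. The log2 fold change was -0.11 ± 0.087 (edgeR adjusted p = 0.516), and the interval of the fold ran from 0.813 to 1.06. Foxo3, a FoxO factor of stress responses, was at 12.7, 17.1, 14.7 and 23.2 CPM in wild type and at 22.4, 15.9, 19.7 and 12.6 CPM in knockout. High and low libraries occurred in each genotype, and the log2 fold change of 0.053 ± 0.22 (edgeR adjusted p = 0.912) turned negative without a composition factor, under limma-trend, and when wild-type replicate 1 or 3 or knockout replicate 1 or 3 was left out.

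**Figure D2:**
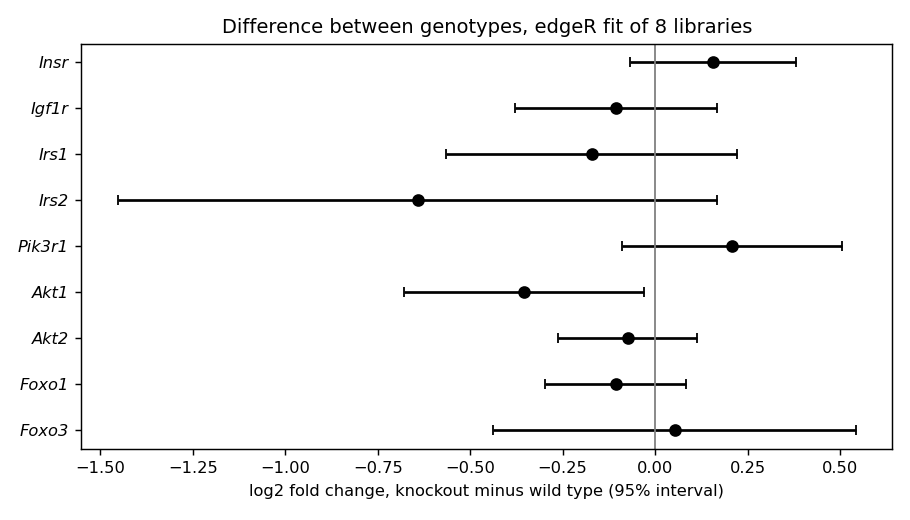
The log2 fold change of each of the 9 genes, knockout minus wild type, is plotted as a point with its 95% interval from the edgeR fit of 8 libraries. The interval of Irs2 is the widest, from -1.45 to 0.17, that of Akt1 alone lies below 0 before adjustment, and the other 7 also include 0.

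DESeq2 called 0 of 9, against 5.27% of the genes for which it gave an adjusted p, and limma-voom called 0 of 9 (0.0147% of all genes). Without wild-type replicate 1, edgeR called 9.46% of genes and 0 of the 9. The median log2 fold change was -0.11 over the members, with 6 of 9 negative, and 0.0098 over all genes, with 48.7% negative. No member separated the genotypes, which 8.34% of all genes did. With wild-type replicate 1 left out, 4 of 9 members (Igf1r, Irs2, Akt2 and Foxo1) and 14.0% of all genes became wholly lower in knockout. In the same setting 0 of 9 members and 12.0% of all genes were wholly higher. That library was the lowest of its group for each of the 4 members, so leaving it out favours such a count. Dropping knockout replicate 1 made 1 of 9, Akt1, and 8.90% of all genes wholly lower. Dropping any other single library left 0 of 9 members separated in either direction. Wild-type replicate 1 had 22.3% acinar RNA, against 1.75 to 12.1% in the other wild-type libraries, and its part in these counts was not tested.

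Ratios of counts within a library do not depend on how library sizes are scaled. Irs2 to Irs1 was 0.955, 1.20, 1.48 and 1.36 in wild type and 1.41, 0.803, 0.943 and 0.616 in knockout. The knockout replicates were lower except replicate 1, and the mean log2 ratio differed by -0.45 (exact two-sided permutation p = 0.171, n = 4 each). Igf1r to Insr was 1.58, 2.21, 3.12 and 2.67 in wild type and 1.86, 1.99, 1.89 and 2.08 in knockout. Knockout values were nearly alike, with an SD of 0.075 on the log2 scale against 0.43 in wild type, and the means differed by -0.25 (exact permutation p = 0.314). Over left-out libraries the difference ran from -0.44 without wild-type replicate 1, the library that overlapped the knockout ratios from below, to -0.11 without wild-type replicate 3.

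Akt2 to Akt1 was 1.43, 1.65, 1.43 and 1.40 in wild type and 1.42, 2.21, 2.03 and 1.71 in knockout. The other 3 knockout libraries exceeded every wild-type library and replicate 1 did not, for a difference of 0.30 in log2 (exact permutation p = 0.114) and of 0.42 without knockout replicate 1, for which no p is given because the library left out is the one that overlapped. Foxo3 to Foxo1 ran from 0.316 to 0.561 in wild type and from 0.315 to 0.549 in knockout, with a difference of 0.17 (exact permutation p = 0.600). Adjusted over the 4 ratios the p-values were 0.343 for the IRS and Akt pairs, 0.419 for the receptors and 0.600 for the FoxO pair, and the smallest p that 4 against 4 allows is 0.029.

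**Figure D3:**
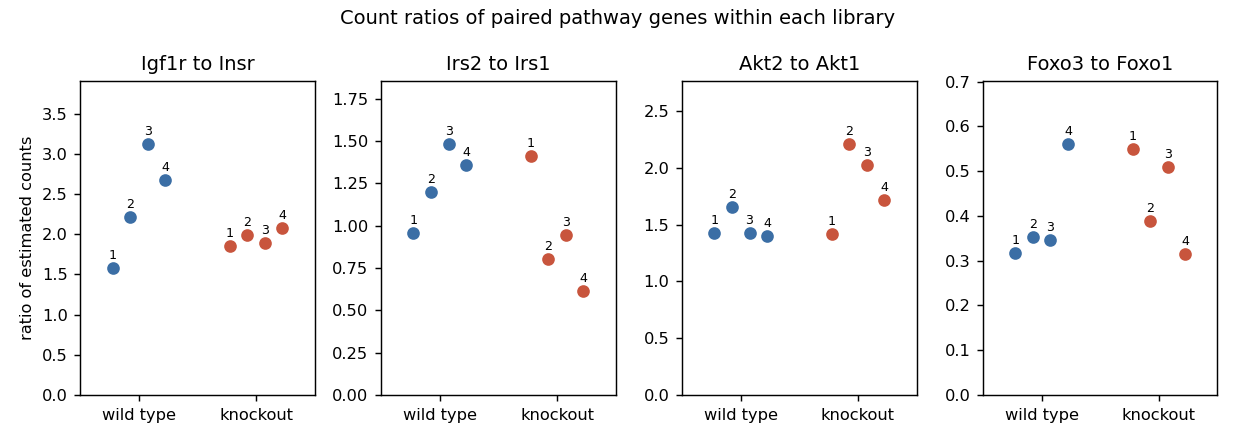
Each panel plots the ratio of estimated counts of a gene pair on a vertical axis from 0, with 4 wild-type libraries in blue and 4 knockout libraries in red, numbered by replicate. The Igf1r to Insr ratio lies between 1.86 and 2.08 in knockout and between 1.58 and 3.12 in wild type.

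Several members varied together over the 8 libraries. These correlations of log2 CPM are descriptions, since the points share genotype, acinar share and scaling. Irs2 and Akt2 had Pearson's r of 0.95, Igf1r and Irs1 0.86, Igf1r and Irs2 0.75, and Irs1 and Irs2 0.73. Pik3r1 ran against the substrates, at -0.79 with Irs1 and -0.68 with Irs2, and the 2 receptors ran against each other at -0.70. The tested genes most like Insr over the libraries were Sgms2 (r = 0.97), Nr2c1 (0.96) and Zfp113 (0.96). For Irs2 they were Tcf7l1 (0.98), Tnpo2 (0.97) and Med24 (0.97), for Akt1 they were Arhgap1 (0.97), Fam216a (0.97) and Nr1h2 (0.96), and for Foxo1 they were Vipr1 (0.98), Neurl1a (0.97) and Abhd15 (0.97). Vipr1, the receptor gene of vasoactive intestinal peptide, shared with Foxo1 its peak in wild-type replicate 2, at 52.0 CPM against 20.7 to 27.1 CPM elsewhere.

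The acinar share ran with 3 members before adjustment. Against the log2 share of the 16 acinar markers, Foxo1 had r = -0.81 (exact permutation p = 0.0120) and rho = -0.86 (exact permutation p = 0.0107) over 8 libraries. Pik3r1 had r = 0.77 (exact permutation p = 0.0295) and rho = 0.60 (exact permutation p = 0.132), and Irs1 had r = -0.75 (exact permutation p = 0.0288) and rho = -0.79 (exact permutation p = 0.0279). Adjusted over the 9 members, each of the 3 values of r had p = 0.0884, and the adjusted p of rho was 0.0964 for Foxo1, 0.126 for Irs1 and 0.227 for Pik3r1. Wild-type replicates 2 and 4 were the libraries farthest from the median log2 share. Without them r was -0.51 for Foxo1, 0.37 for Pik3r1 and -0.75 for Irs1. The r of Foxo1 and Pik3r1 was thus nearer 0 without those libraries, over a narrower range of shares. The other 6 members had r between -0.50 and 0.30, with adjusted p of at least 0.450, and rho between -0.64 (Irs2) and 0.62 (Insr), with adjusted p of at least 0.227. Within a genotype 4 libraries are too few for a correlation. Adding the acinar share as a covariate moved the log2 fold change of Irs1 from -0.17 to -0.0017, that of Foxo1 from -0.11 to -0.055 and that of Pik3r1 from 0.21 to 0.11. Irs2 had -0.50 and Akt1 -0.43 in that fit, and 0 of 9 members passed.

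**Figure D4:**
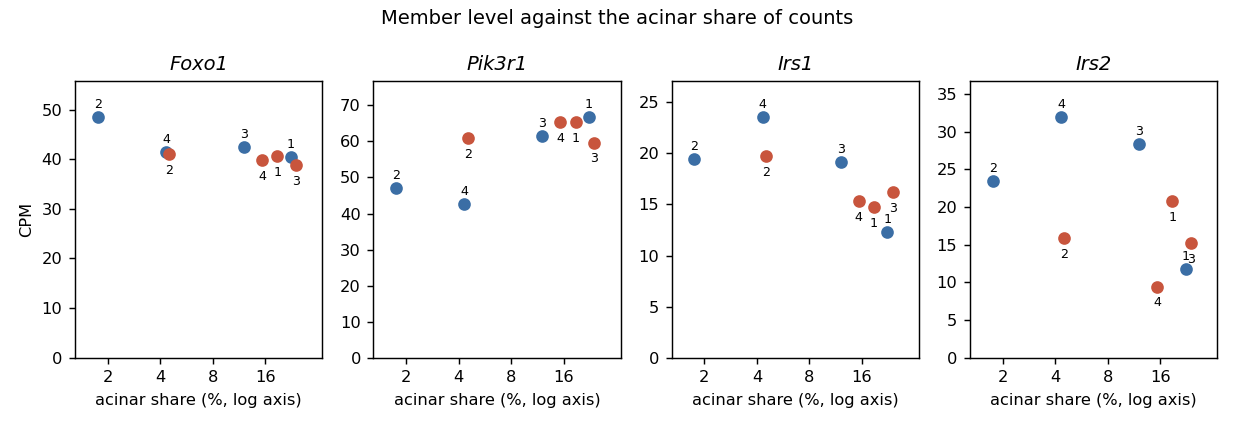
CPM of Foxo1, Pik3r1, Irs1 and Irs2 (vertical axis, from 0) is plotted against the share of counts on 16 acinar markers (percent, log axis), with wild-type libraries in blue and knockout libraries in red, numbered by replicate. Foxo1 is highest, at 48.5 CPM, in the library with 1.75% acinar RNA, and Irs1 is lowest, at 12.3 CPM, in wild-type replicate 1 with 22.3%.

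Around the members, 112 further genes of the pathway were sorted into 11 lists, and 102 of them were tested. By edgeR 0 of the 102 passed FDR 0.05, 9 were higher and 13 lower at an unadjusted p below 0.05 (8.42 and 10.3% of all genes), and the median log2 fold change was 0.014. DESeq2 called 8 of the 102, against 5.27% of the genes for which it gave an adjusted p. It gave none for some of the 102, among them Foxo4 and Foxo6. Limma-voom called 0, and edgeR called 13 without wild-type replicate 1 (9.46% of all genes).

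The ligands differed widely in level. The insulin genes Ins2 and Ins1, the islet's own ligands of Insr, were at 115400 and 42520 CPM in wild type and at 77170 and 32730 CPM in knockout (edgeR adjusted p = 0.151 and 0.229). Igf1 was at 32.8, 3.49, 13.4 and 4.01 CPM in wild type and at 26.0, 97.5, 34.5 and 17.6 CPM in knockout. It was high in libraries with much acinar RNA and highest in knockout replicate 2, where liver genes took 0.584%, and the part of either in its level was not tested. Its log2 fold change was 1.72 ± 0.94 (edgeR adjusted p = 0.359) and 0.96 without that library. Igf2 had a log2 fold change of 0.31 ± 0.17 (edgeR adjusted p = 0.334).

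Of 8 genes of IGF binding and carrier proteins, 5 were tested. Igfbp4, which sequesters IGFs, was at 2.70 to 3.45 CPM in wild type and at 5.12, 60.8, 3.05 and 6.43 CPM in knockout. Knockout replicate 2 stood far above the others, and the log2 fold change of 2.65 (edgeR adjusted p = 0.262) was 0.69 without it. Igfals, of the circulating IGF complex, had a log2 fold change of -0.23 ± 0.22 (edgeR adjusted p = 0.573). Igfbp2, below the count filter, had 78 counts in knockout replicate 2 and 2 over the other libraries.

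Among 10 tested receptors and adaptors outside the members, Insrr and Igf2r had the smallest p. Insrr, the insulin receptor-related receptor, was at 118, 224, 151 and 191 CPM in wild type and at 119, 121, 126 and 99.2 CPM in knockout. Wild-type replicate 1 lay among the knockout libraries and the other 3 above them. The log2 fold change was -0.56 ± 0.18 (edgeR adjusted p = 0.173). Without wild-type replicate 1 it was -0.72, with no p given because the library left out is the one that overlapped. Igf2r, which clears IGF2, was at 52.3 ± 6.14 and 43.2 ± 2.07 CPM (edgeR adjusted p = 0.199). The other IRS genes, Irs3 and Irs4, had at most 6 counts in any library and were not tested.

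Of 8 other PI3K subunit genes, Pik3r2, which encodes p85 beta, was at 7.96, 14.0, 12.3 and 12.1 CPM in wild type and at 8.71, 8.41, 7.11 and 6.59 CPM in knockout. Its log2 fold change of -0.59 ± 0.17 (edgeR adjusted p = 0.151) stood beside 0.21 for its paralog Pik3r1, a difference between the genes that was not tested. Pik3c2a, a class II PI3K gene, had 0.18 ± 0.13 (edgeR adjusted p = 0.445). Among 9 further kinases at and below Akt, Sgk1, a serum and glucocorticoid responsive relative of Akt, was at 17.0, 8.28, 11.7 and 8.40 CPM in wild type and at 23.2, 13.9, 17.7 and 16.6 CPM in knockout. Wild-type replicate 1 exceeded 2 of the knockout libraries (log2 fold change 0.65 ± 0.25, edgeR adjusted p = 0.223). Without that library the log2 fold change was 0.90, again with no p given because it was the library that overlapped. The atypical protein kinase C gene Prkci had 0.29 ± 0.11 (edgeR adjusted p = 0.221).

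The mTOR branch of 15 genes had a median log2 fold change of -0.064. Against 18.7% of all tested genes, 6.67% of the list, 1 gene, had an unadjusted p below 0.05. This was Tsc1, a brake on mTOR, at 32.0 ± 3.85 CPM in wild type against 27.1 ± 1.57 CPM in knockout (edgeR adjusted p = 0.250), while its opponent Rheb had a log2 fold change of 0.33 ± 0.16 (adjusted p = 0.288). Of 14 tested inhibitors, 9 had negative values with a median of -0.075. Enpp1, an ectoenzyme known to inhibit the insulin receptor, was at 1.63 ± 0.77 CPM in wild type against 3.55 ± 1.02 CPM in knockout (log2 fold change 1.12 ± 0.32, edgeR adjusted p = 0.151). The receptor phosphatase gene Ptprf was at 227 ± 31.2 and 183 ± 5.38 CPM (edgeR adjusted p = 0.197).

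In the Ras and ERK branch of 11 genes the median was 0.12. Map2k2, the MEK2 kinase gene, had a log2 fold change of -0.36 ± 0.12 (edgeR adjusted p = 0.175). Of the remaining FoxO genes, Foxo6 was at 2.72 ± 1.04 CPM in wild type against 1.70 ± 0.40 CPM in knockout (edgeR adjusted p = 0.232). Foxo4 was at 1.65 ± 0.53 and 2.001 ± 0.21 CPM (adjusted p = 0.533).

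Genes known as FoxO targets had mostly positive values: 13 of 16 tested, beside 6983 of all 13617 genes, with a median log2 fold change of 0.29 and 0 past FDR 0.05 in edgeR. At an unadjusted p below 0.05, 4 were higher (8.42% of all genes) and 0 lower (10.3%), and DESeq2 and limma-voom each called 0. The cell cycle inhibitor gene Cdkn1b was at 43.8, 40.8, 39.8 and 43.8 CPM in wild type and at 42.7, 52.8, 58.8 and 58.2 CPM in knockout (log2 fold change 0.34 ± 0.11, edgeR adjusted p = 0.174). Sod2, the mitochondrial superoxide dismutase gene, had 0.24 ± 0.10 (adjusted p = 0.236). Of genes picked after their values were seen, the catalase gene Cat was at 5.84 to 12.8 CPM in wild type and at 13.6, 175, 15.0 and 12.4 CPM in knockout. Its log2 fold change of 2.74 was 0.75 without knockout replicate 2, and the median of the list was 0.14 without that library. Liver genes took 0.584% of counts in knockout replicate 2 and at most 0.000838% elsewhere, and their part in the values of Cat and Pck1 was not tested. Pck1, a gluconeogenic target below the count filter, had 2923 counts in knockout replicate 2 and at most 3 in any other library. Irs2, itself a FoxO target and not in that list, had a value of the opposite sign.

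The CREB pathway raises Irs2 transcription in beta cells after cAMP signals, and 8 of its genes had a median log2 fold change of -0.14. Of these, 3 had positive and 5 negative values, and the list did not separate activators from inhibitors. The CREB coactivator gene Crtc2 was at 16.2, 24.6, 22.1 and 27.9 CPM in wild type and at 15.8, 16.2, 15.9 and 16.5 CPM in knockout, with wild-type replicate 1 again among the knockout libraries. Its log2 fold change was -0.50 ± 0.14 (edgeR adjusted p = 0.151), and -0.64 without that library. Crtc1 had -0.56 ± 0.17 (edgeR adjusted p = 0.163), and -0.70 without wild-type replicate 1. No p is given for the fits without it, because that library overlapped the knockout libraries for both genes. By DESeq2 the adjusted p was 0.0477 for Crtc2 and 0.0486 for Crtc1. Creb1 itself had 0.12 ± 0.10 (edgeR adjusted p = 0.525). With the log2 acinar share as covariate, the log2 fold change was -0.36 for Crtc2 and -0.44 for Crtc1.

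**Figure D5:**
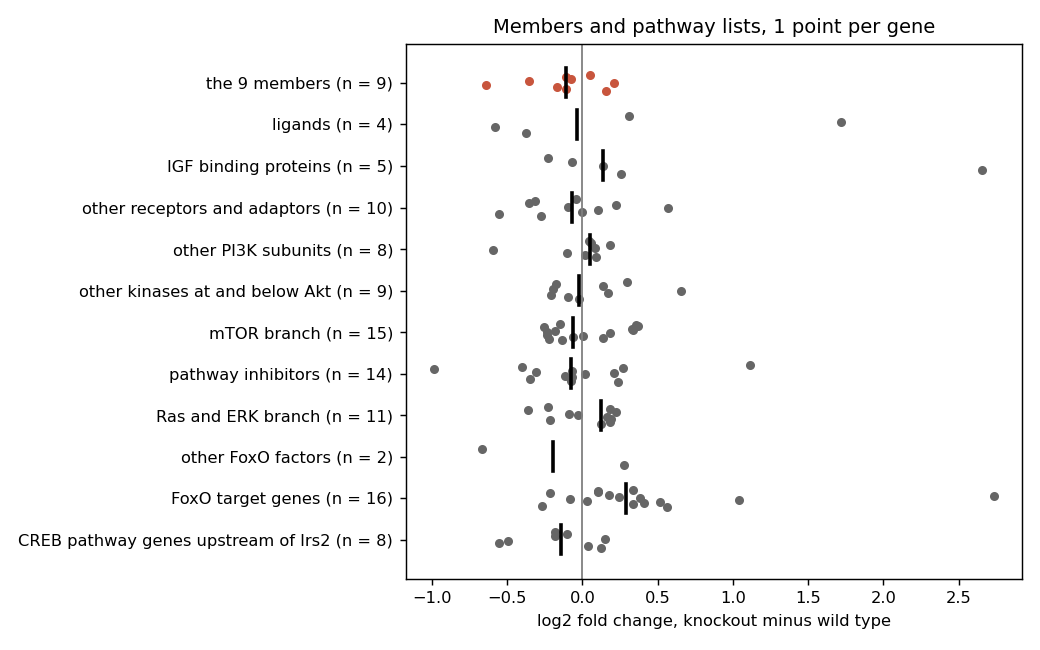
Log2 fold changes, knockout minus wild type, are plotted for the 9 members (red) and for the tested genes of 11 pathway lists (grey), with a black line at each median. The medians lie between -0.19 (other FoxO factors) and 0.29 (FoxO targets), and the points beyond 1.5 are Igf1, Igfbp4 and Cat, all highest in knockout replicate 2.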

How the data were processed

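RNA of 8 islet libraries was sequenced from total RNA (SeqPlex kit, per the labels' protocols). STAR 2.4.1, Partek and build mm9 stand in the submitters' processing notes. For their roles, the annotation and the strand setting nothing is given in the sources used here. The authors deposited estimated counts per gene, of which 9.98 to 12.4% per library were not whole within 0.01, and RPM, each count divided by a constant of its library plus 0.0001. Columns were matched to samples by title.

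Rounded counts went into edgeR 4.0.16 under R 4.3.3 (TMM, filterByExpr, robust quasi-likelihood F-test, Benjamini-Hochberg over 13617 genes, threshold 0.05). Intervals of 95% come from the F statistic and its degrees of freedom. CPM uses all genes kept, and log2 CPM a prior count of 2. Ratios were tested by enumerating all 70 splits, and correlations by all 40320 orders, with SciPy 1.17.1. DESeq2 1.42.0, limma 3.58.1 (voom, and trend on log2 of the RPM values plus 1) and the other alternatives are covered in the closing section. The fit was tested on simulated data, where it recovered 14% of planted 1.5-fold changes, 84% of 2-fold and 100% of 4-fold changes. Of its 150 calls there, 9 were false. A member difference of 1.5-fold would thus mostly be missed in such data. Whether the recovered percentages hold for the 8 islet libraries, which differed in acinar and liver RNA, was not tested. In those libraries the same fit called 2 of 13617 genes. Without strand, reads of a gene and of an overlapping antisense gene cannot be told apart.

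Named are the 9 members, the 2 genes of smallest p in each pathway list (all genes in lists of 4 or fewer), the 3 genes most correlated with the member of smallest p in each role, and genes said to be picked after their values were seen, among them Igfbp2, Irs3, Irs4, Cat, Pck1 and Creb1. A gene that this rule names is not reported here. Members and lists were chosen with earlier results of these data known. Exon lengths come from GENCODE M21 (GRCm38) and promoters from RefSeq (GRCm38.p6), neither of which is the submitters' build. Replicates are separate mice per the labels' protocols. Counting error alone is covered by the limit for a count of 0.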

Additional observations from a re-analysis of the deposited data

Results flagged for a closer look

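In groups of 4 libraries, 74 groups of values were searched for a library that stands apart from the other 3, and chance marks about 1 group in 20. Akt2 was at 35.48 CPM in wild-type replicate 1, against 39.2 to 39.4 CPM in the other wild-type libraries. The Akt2 to Akt1 ratio was 1.651 in wild-type replicate 2, against 1.40 to 1.43 in the others. The Foxo3 to Foxo1 ratio was 0.5612 in wild-type replicate 4, against 0.316 to 0.352. Outside the members, Igfbp4 was at 60.81 CPM in knockout replicate 2, against 3.05 to 6.43 CPM, Foxo6 was at 4.275 CPM in wild-type replicate 2, against 2.11 to 2.33 CPM, and Foxo4 was at 2.446 CPM in wild-type replicate 1, against 1.32 to 1.46 CPM.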

How the results depend on the processing

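No filter, a CPM above 1 in at least 4 libraries, no robust estimation, limma-voom, library sizes that leave out Mir6236, Rn45s and Lars2, and the acinar share or high Xist as a covariate each left 2 or 3 genes past FDR 0.05. Xist was high in 1 wild-type and 2 knockout libraries. The members past FDR 0.05 stayed at 0 of 9 under all 19 alternatives. The genes past FDR 0.05 numbered 2 in edgeR, 525 with DESeq2, 48 with no composition factor and 51 under limma-trend, and 2 to 1313 over the left-out libraries (1313 without wild-type replicate 1, 5 if knockout replicate 4 was dropped). For the members the median log2 fold change was -0.24 with no composition factor, which moved the median of all genes to -0.11, and -0.23 under limma-trend. Left-out libraries gave medians from -0.15 to -0.058. Foxo3 was the member whose sign changed: -0.17 with no composition factor, -0.084 under limma-trend, and -0.093 to 0.24 over left-out libraries. The other 8 members kept their sign under all 19 alternatives. Differences in log2 ratio ran from -0.44 to -0.11 for Igf1r to Insr, 0.21 to 0.42 for Akt2 to Akt1, -0.67 to -0.27 for Irs2 to Irs1 and 0.048 to 0.35 for Foxo3 to Foxo1 over left-out libraries, each with its sign kept. The cause of these changes was not tested.

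Replicate numbers do not mark a shared source in the labels, and same-numbered libraries deviated together with correlations of 0.038, 0.21, 0.16 and 0.15. With the replicate number as a block, 2 genes and 0 members passed, the median of the members was -0.090, and the exact sign-flip p-values of the ratios were 0.375, 0.25, 0.25 and 0.75 for Igf1r to Insr (difference -0.25), Irs2 to Irs1 (-0.45), Akt2 to Akt1 (0.30) and Foxo3 to Foxo1 (0.17). With 4 pairs the sign-flip test cannot give a p below 0.05, whatever the values. Wild-type replicate 1 correlated best with knockout replicate 3, not with its own number. Among the further pathway genes named in the text, some passed under single alternatives. With DESeq2 these were Ins1, Ins2, Insrr, Pik3r2, Enpp1, Crtc1 and Crtc2. Without wild-type replicate 1 they were Ins2, Insrr, Igf2r, Pik3r2, Sgk1, Tsc1, Enpp1, Ptprf, Map2k2, Crtc1 and Crtc2. DESeq2 called 5.27% of the genes for which it gave an adjusted p. Without wild-type replicate 1, edgeR called 9.46% of all genes. For every named gene that passed without it except Ins2, wild-type replicate 1 overlapped the knockout libraries. Leaving it out thus favours a small p for those genes. The medians of the lists were recomputed under the same alternatives after the data were seen. Over 8 libraries the lowest member counts were 294 for Irs2 and 251 for Irs1, and the part of depth in their spread was not tested.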
